A study of Rattus norvegicus with 22 samples.

Results

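Lymphocytes of the rat kidney were studied as the nuclei that the authors annotated as Lymphocyte in a single-nucleus RNA-Seq (snRNA-Seq) atlas of the deoxycorticosterone acetate (DOCA) salt model of hypertension. The annotation alone chose the nuclei, in all treatments, and it held 2999 lymphocyte nuclei among 310282, or 0.967% (95% CI, 0.932%–1.00%, exact binomial). This interval pools all nuclei and covers counting error only. Shares in the 22 libraries ranged from 0.157% to 3.37%, with a mean of 1.22%. The other immune nuclei were 6329 macrophage (Mac) and 1626 monocyte (Mono) nuclei, so lymphocytes made up 27.4% of 10954 immune nuclei, and they ranked 13 of 16 annotated cell types by size.

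In snRNA-Seq, the transcripts of each nucleus are barcoded in a droplet of its own before sequencing. Kidneys came from male Sprague-Dawley rats and gave 22 libraries, namely 5 each from the control, DOCA, finerenone, and spironolactone groups and 2 from the amiloride group. Control rats were sham operated and received no DOCA. All other rats lost 1 kidney, drank salt water, and received weekly DOCA at 50 mg/kg, together with vehicle in the DOCA group, finerenone at 10 mg/kg per day, spironolactone at 50 mg/kg per day, or amiloride at 20 mg/kg per day. DOCA is a mineralocorticoid, finerenone and spironolactone are a nonsteroidal and a steroidal antagonist of the mineralocorticoid receptor, and amiloride blocks the epithelial sodium channel. Since controls differed from the DOCA rats in nephrectomy, salt, and DOCA at once, these cannot be told apart. Most samples were from 6 weeks of treatment, and 3 were from 3 weeks, 1 each with DOCA, finerenone, and spironolactone. No library name could be tied to a sample or its week. The annotation gave each library its treatment, with as many libraries as samples in each group, and the tests below take each library as 1 value, so the 3-week libraries are among them.

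Lymphocytes are the T, B, and natural killer cells. A healthy kidney holds few of them, mostly in the interstitium and around vessels, and in hypertension they accumulate there together with macrophages. T cells are known to contribute to salt-sensitive and angiotensin-driven hypertension, and mineralocorticoid receptor antagonists are known for anti-inflammatory effects. The genes listed here as markers of these nuclei are Ptprc, Skap1, and Cd247. Ptprc encodes the pan-leukocyte phosphatase CD45, and Skap1 and Cd247 encode an adaptor and the zeta chain of T-cell receptor signaling. The paper's text names Cd96 as a marker of lymphocytes. Gene values were not analysed here, so the name Lymphocyte was not checked against these markers, and subsets such as T and B cells were not separated.

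Libraries held 759 to 48403 nuclei and 3 to 366 lymphocyte nuclei (median 90), and 4 libraries had under 25. In the annotation, 11 library names contain Old or New, called tagged here, and 11 do not. The tag New stands on 6 libraries (1 DOCA, 2 finerenone, 1 spironolactone, and both amiloride libraries, but no control), and 5 libraries, 1 per treatment, are marked as Multiome. No source used here says what Old and New mean. The earlier-numbered samples, all from 6 weeks, match the untagged libraries in number per treatment. The later-numbered samples, which include all 3-week samples, match the tagged libraries in the same way. This ties no single library to a sample. Tagged and untagged libraries may thus also differ in week, which was not tested. Of 16 numbers in the library names, 5 recur, 4 of them between treatments, and 1 pair of control and 1 pair of spironolactone libraries carry the same number. No barcode of a lymphocyte nucleus recurred in a lymphocyte nucleus of another library, and 6.44% of lymphocyte nuclei shared a barcode with a nucleus of any type in another library, against 6.37% of all nuclei.

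Lymphocytes were more abundant in the DOCA group than in controls. They made up 0.242%, 0.287%, 0.338%, 0.621%, and 0.631% of nuclei in the 5 control libraries. In the 5 DOCA libraries they made up 0.639%, 1.30%, 1.67%, 2.11%, and 2.24%. The groups did not overlap, but the lowest DOCA library, the New one, lay next to the highest control library, and the exact binomial intervals of that pair overlapped (0.511%–0.789% and 0.509%–0.772%). The mean rose from 0.424% ± 0.188% in controls to 1.59% ± 0.649% with DOCA (SD, n = 5 each), which is 3.76 times the control mean and a difference of 1.17 percentage points (95% CI, 0.396–1.87). The exact permutation test over libraries, two-sided, gave p = 0.00794, the smallest p that 5 against 5 libraries allow, and p = 0.0258 after Benjamini-Hochberg adjustment over the 5 comparisons between treatments. Of the 16 annotated cell types, 31.2% passed an unadjusted threshold of 0.05 in this comparison, and with adjustment over all 16 types the lymphocyte p was 0.0635. The other types that passed were proliferating tubule, macrophage, monocyte, and injured proximal tubule (iPT) nuclei. Their means were 4.23, 2.89, 1.96, and 1.75 times those of controls, so the lymphocyte ratio ranked second.

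Among untagged libraries the difference was 1.35 percentage points (3 against 3 libraries), and among tagged libraries it was 0.890 (2 against 2), with exact permutation p = 0.1 and p = 0.333, the smallest that these numbers allow. With labels permuted only within these 2 sets, the exact permutation p was 0.0167, also the smallest possible. The adjusted p was above 0.05 when the control library of 1238, 6629, or 18931 nuclei was left out (0.0760, 0.0718, and 0.0660). It was also above 0.05 with merging of 2 control libraries whose names carry the same number (0.0744). In each of these cases the groups still did not overlap and the unadjusted exact permutation p of 0.0159 was the smallest that 5 against 4 libraries allow.

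**Figure D1:**
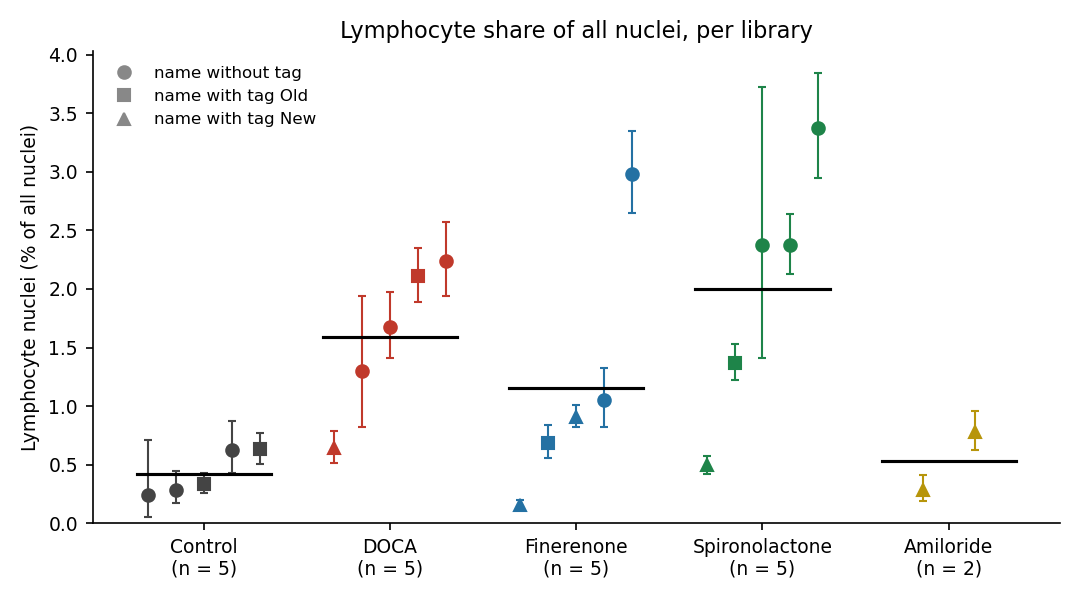
Lymphocyte nuclei as a percent of all nuclei (vertical axis) in each of 22 libraries, grouped by treatment; error bars are exact 95% binomial intervals, which cover counting error only, black lines are means over libraries, and the marker shape gives the tag in the library name. All 5 DOCA libraries lie above the 5 control libraries, while finerenone runs from 0.157% to 2.98%, and the New library or libraries include the lowest in DOCA, finerenone, and spironolactone.

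The drug groups were each set against DOCA to ask whether treatment altered the lymphocyte share. With finerenone, lymphocytes made up 0.157%, 0.687%, 0.909%, 1.05%, and 2.98% of nuclei, a range of 19.0 times that reached below the lowest control and above the highest DOCA library. The mean of 1.16% ± 1.07% (SD, n = 5) differed from the DOCA mean by −0.434 percentage points (95% CI, −1.55 to 0.871; exact permutation p = 0.476, adjusted p = 0.484). The interval covers a loss of nearly the whole DOCA mean as well as a gain. No change was thus detected, and 5 libraries of this spread do not settle its direction. The difference was −0.865 with nuclei pooled per treatment, −0.0182 without the 2 finerenone libraries over 30000 nuclei, and 0.280 in untagged libraries. Of the 16 cell types, 12.5% passed an unadjusted 0.05 in this comparison, and lymphocytes were not among them.

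With spironolactone, lymphocytes made up 0.493%, 1.37%, 2.37%, 2.37%, and 3.37% of nuclei. Of the 5 libraries, 3 lay above the highest DOCA library and the New one lay below the lowest. The mean of 2.00% ± 1.10% (SD, n = 5) was 0.404 percentage points above the DOCA mean (95% CI, −0.962 to 1.73; exact permutation p = 0.484, adjusted p = 0.484). The direction turned with nuclei pooled per treatment (−0.273) and in tagged libraries (−0.444), and without the spironolactone library of 6404 nuclei the difference was 0.0600. No cell type passed 0.05 here (percent called 0).

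The 2 amiloride libraries had 0.285% and 0.781% lymphocytes, the first within and the second above the control range. Their mean of 0.533% ± 0.350% (SD, n = 2) differed from the DOCA mean by −1.06 percentage points, with an exact permutation p of 0.190, where 2 against 5 libraries cannot go below 0.0952. Both amiloride libraries carry the tag New and the single New library of the DOCA group had 0.639%, between them, so amiloride and the New libraries cannot be told apart in this comparison.

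Over all 17 libraries of rats given DOCA, with or without a drug, the mean share was 1.46%, or 3.44 times that of controls, and 1.03 percentage points higher (95% CI, 0.188–1.95; exact permutation p = 0.0103, adjusted p = 0.0258). Of these libraries 14 lay above the highest control and 1, a New finerenone library, lay below the lowest control. In this comparison 31.2% of the 16 cell types passed an unadjusted 0.05, and lymphocytes had the highest ratio of the 16, with an exact permutation p of 0.0826 after adjustment over them. The difference was 1.79 percentage points among untagged libraries (8 against 3, exact permutation p = 0.0121) but 0.341 among tagged ones (9 against 2, exact permutation p = 0.473), and 0.606 with nuclei pooled per treatment. The adjusted p of this comparison was above 0.05 on the logit scale (0.0581), without Multiome libraries (0.0546), in libraries of at least 2000 nuclei (0.117), and with the same-number controls merged (0.0744).

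The libraries tagged New held a lower share of immune nuclei than other libraries of DOCA-injected rats, with medians of 2.08% and 7.67% against 2.09% in controls. This split was made after the values were seen, and it is given as a description. In the 6 New libraries lymphocytes made up 0.157% to 0.909% of nuclei (median 0.566%), against 0.687% to 3.37% (median 2.11%) in the other 11 libraries of DOCA-injected rats and 0.242% to 0.631% (median 0.338%) in controls. The macrophage medians of these 3 sets were 1.05%, 4.61%, and 1.10%, the monocyte medians 0.466%, 0.735%, and 0.407%, and those of iPT nuclei 3.87%, 7.60%, and 4.60%, so lower shares than in the other DOCA-injected rats were not particular to lymphocytes. New libraries were also larger, with a median of 23495 nuclei against 8716. Without the New libraries, DOCA exceeded control by 1.41 percentage points (exact permutation p = 0.0159, adjusted p = 0.0317), and the finerenone and spironolactone means differed from DOCA by −0.256 and 0.542 (exact permutation p = 0.743 and p = 0.286). Whether time point, kit, or handling differs between New and other libraries was not tested.

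The share of lymphocytes among immune nuclei asks whether lymphocytes changed more than macrophages and monocytes did. In controls it was 11.5%, 16.3%, 17.3%, 25.2%, and 30.2%. In the DOCA group it was 16.9%, 24.4%, 26.8%, 28.0%, and 31.7%. These groups overlapped almost throughout, with means of 20.1% ± 7.48% and 25.5% ± 5.49% (SD, n = 5 each) and a difference of 5.45 percentage points (95% CI, −5.26 to 15.3; exact permutation p = 0.230, adjusted p = 0.384). The 3 lowest controls were the untagged ones and the 2 highest the tagged ones. The difference was accordingly 10.1 percentage points among untagged libraries and −1.52 among tagged libraries.

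Finerenone libraries ranged from 23.3% to 28.3% (mean 26.2% ± 1.94%, SD, n = 5), 0.692 percentage points from the DOCA mean (95% CI, −4.76 to 6.62; exact permutation p = 0.825). Spironolactone libraries ranged from 26.1% to 31.0% (mean 29.7% ± 2.02%, SD, n = 5), and the difference from DOCA was 4.18 percentage points (95% CI, −1.40 to 10.1; exact permutation p = 0.127, adjusted p = 0.317). The amiloride libraries had 19.5% and 27.1%. Over all DOCA-injected rats the share was 6.62 percentage points above controls (95% CI, 0.95–12.1; exact permutation p = 0.0272), which did not pass after adjustment over the 5 comparisons (p = 0.136). The sign among tagged libraries was again the opposite (−1.51).

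**Figure D2:**
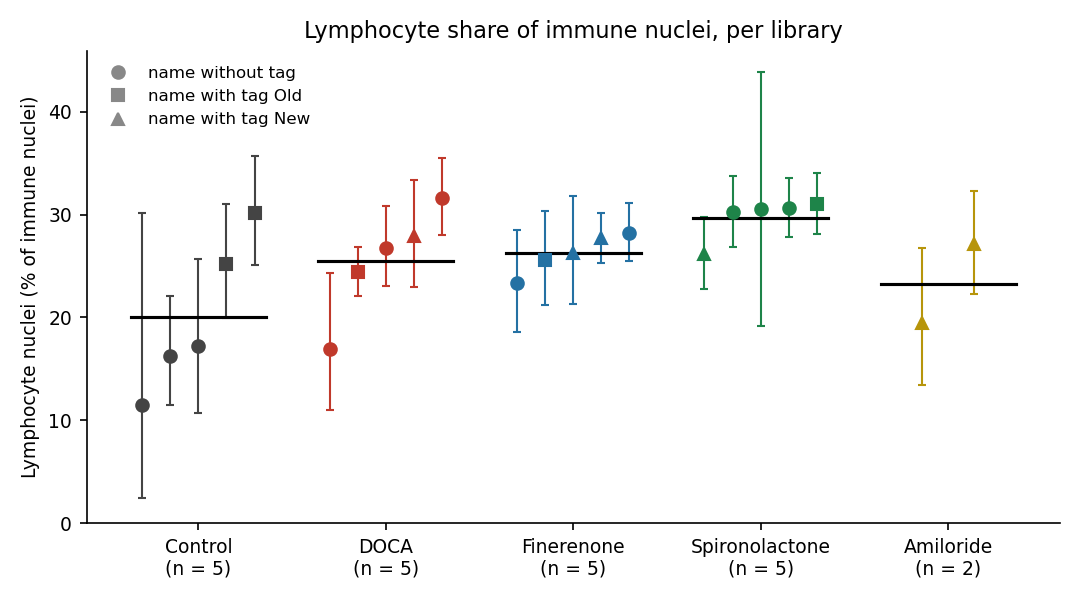
Lymphocyte nuclei as a percent of immune nuclei (lymphocytes, macrophages, and monocytes; vertical axis) in each of 22 libraries by treatment, with exact 95% binomial intervals, means as black lines, and marker shape for the name tag. Treatments overlap; 4 spironolactone libraries sit between 30.3% and 31.0% and the New one at 26.1%.

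The 2 myeloid types were then used as separate yardsticks. There were 17.6 to 60.0 lymphocyte nuclei per 100 macrophage nuclei in controls and 22.5 to 55.2 in the DOCA group. In the spironolactone group the ratio was 51.2, 51.4, 52.4, 52.4, and 53.3, although the lymphocyte share of all nuclei in these libraries differed by 6.84 times. The variance of the lymphocyte share among lymphocytes plus macrophages in this group was 0.0416 times that of counting error alone (Pearson χ² per degree of freedom), against 2.55 with finerenone, 2.83 with amiloride, 5.10 in the DOCA group, and 6.10 in controls, a contrast singled out after the values were seen. For the same relative spread, such a ratio of variances rises with the number of nuclei counted, which differed between treatments. Per 100 monocyte nuclei, the lymphocyte count was 50.0 to 155 in controls and 133 to 339 in the DOCA group. With lymphocytes taken as a share of lymphocytes plus monocytes, a denominator added after the data were seen, DOCA exceeded control by 15.6 percentage points (exact permutation p = 0.0317, adjusted p = 0.0794). The 6 New libraries had 82.9 to 133 lymphocyte nuclei per 100 monocyte nuclei, below the range of 147 to 339 in the other libraries of DOCA-injected rats.

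The same ratio of variances for the lymphocyte share of all nuclei, 1 for counting error alone, was 6.13 in controls, 31.5 in the DOCA group, 220 with finerenone, 125 with spironolactone, and 24.1 with amiloride. These values do not rank the treatments by spread, since the number of nuclei counted differed and amiloride had 2 libraries. Among immune nuclei it was lower, namely 4.61, 4.55, 0.887, 1.31, and 3.20 in the same order. By this ratio the lymphocyte part of the immune nuclei was less dispersed than the lymphocyte share of all nuclei in all 5 treatments. The highest library over the lowest did not show this in controls, at 2.60 times for all nuclei and 2.62 times for immune nuclei. With DOCA these folds were 3.50 and 1.87, with finerenone 19.0 and 1.21, with spironolactone 6.84 and 1.19, and with amiloride 2.74 and 1.39.

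Across the 22 libraries the lymphocyte share moved with those of macrophages, monocytes, and iPT nuclei, the proximal tubule cells that the authors named as injured. For macrophages Pearson's r was 0.917 and Spearman's ρ 0.901. For monocytes they were 0.868 and 0.858, and for iPT nuclei 0.858 and 0.874. Each of these had a permutation p of 1e-05, the smallest that 100000 permutations give, and 2.33e-05 after adjustment over 7 relations. As deviations from treatment means, with labels permuted within treatments, r was 0.900, 0.834, and 0.851, and ρ 0.778, 0.752, and 0.708 (highest adjusted permutation p = 0.00693), so the relation was also present between libraries of the same treatment.

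Within untagged libraries r was 0.879 for macrophages, 0.920 for monocytes, and 0.877 for iPT nuclei (n = 11). Within tagged libraries it was 0.978, 0.900, and 0.847 (n = 11). Without the 2 libraries farthest from the median it was 0.873, 0.867, and 0.823. Shares with a common denominator are tied to each other, and in a library with fewer of 1 abundant type all others rise. When the lymphocyte share was instead taken among nuclei outside the proximal tubule and the iPT share among proximal tubule nuclei, a choice made after seeing the data, r fell to 0.550 and ρ to 0.677 (permutation p = 0.00741 and p = 0.00087). Myofibroblasts went the other way (r = −0.373, ρ = −0.526, adjusted permutation p = 0.135 and p = 0.0233), with ρ of 0.182 within tagged libraries. Over all 22 libraries, fibroblasts, endothelial nuclei, and the number of nuclei (log10) showed no relation that passed the threshold (ρ = −0.117, −0.0785, and −0.229, adjusted permutation p = 0.700, 0.728, and 0.427). In untagged libraries fibroblasts passed (ρ = −0.764, adjusted permutation p = 0.015), but not in tagged ones (ρ = 0.482, adjusted permutation p = 0.238). Endothelial nuclei passed in untagged libraries by r (−0.643, adjusted permutation p = 0.0392) but not by ρ (−0.536, adjusted permutation p = 0.11).

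**Figure D3:**
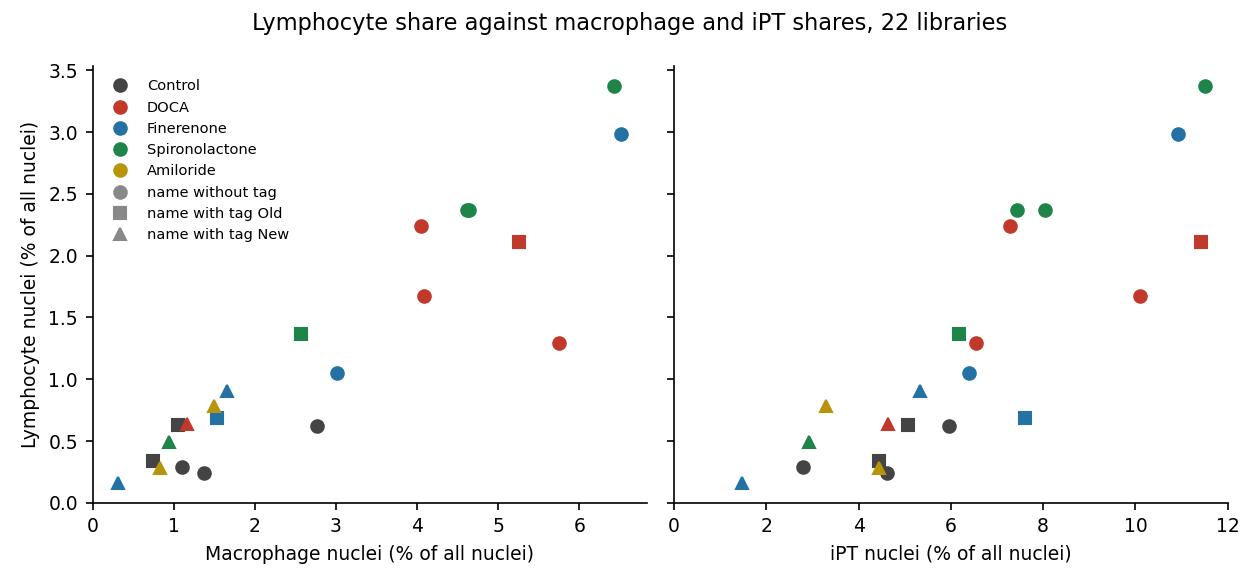
Lymphocyte share of nuclei (vertical axis, %) against the macrophage share (left, %) and the iPT share (right, %) in 22 libraries, with color for treatment and marker shape for the name tag. Libraries with many macrophage or iPT nuclei also had many lymphocyte nuclei (r = 0.917 and 0.858).

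On the deposited UMAP, a map in 2 dimensions on which nuclei of like transcript profile lie close, lymphocyte nuclei kept together. The map was computed from the same genes as the cell types, so it is no independent check of the name. Of the 30 nearest neighbors of a lymphocyte nucleus, 93.7% on average were lymphocytes, and for 2378 nuclei all 30 were. For 2818 nuclei (94.0%) lymphocytes were the majority of the neighbors, and 57 nuclei had no lymphocyte neighbor at all. Conversely, only 40 nuclei of other types sat mainly among lymphocytes, 14 of them macrophages and 9 fibroblasts. Among lymphocyte neighbors, 11.7% came from the same library, 1.52 times the 7.69% given by the numbers of lymphocyte nuclei per library, so libraries were mixed but not fully.

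Lymphocyte nuclei formed 5 separate groups on this map. The groups were defined after the map was seen, as chains of nuclei within 0.3 coordinate units, and no test is reported on them. The largest held 2599 nuclei (86.7%) from all 22 libraries, and 99.1% of their neighbors were lymphocytes. The second held 237 nuclei (7.90%) from 17 libraries and lay beside macrophage and fibroblast nuclei. These were 66.8% and 30.7% of its nearest nuclei of other types. The others held 50, 39, and 29 nuclei, the first beside endothelial nuclei (97.6% of the nearest others), the next beside macrophages and proximal convoluted tubule (67.5% and 32.5%), and the last beside distal convoluted tubule (98.3%). Another 45 nuclei lay outside all groups. Whether nuclei of the smaller groups are lymphocytes, doublets, or nuclei with RNA of their neighbors was not tested.

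**Figure D4:**
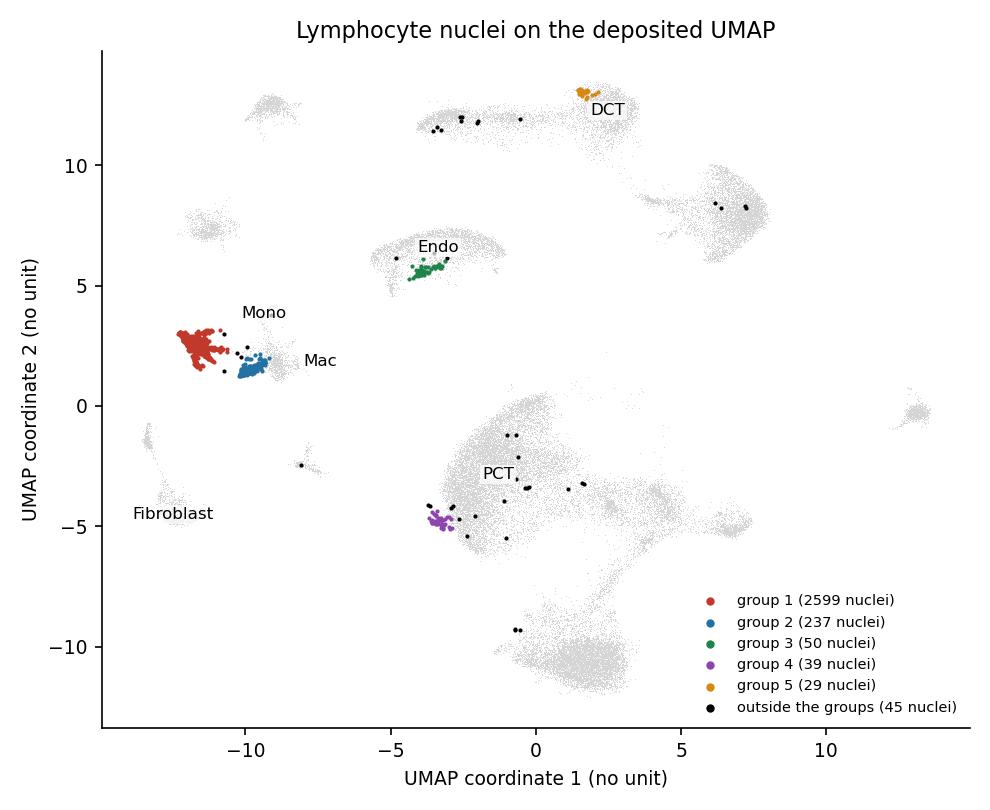
The 2999 lymphocyte nuclei on the authors' UMAP (both axes are coordinates without a unit), colored by their group on the map, over 40000 nuclei of other types in gray, drawn at random; labels mark the median position of some other types, that of Mac being moved to the right. Most lymphocyte nuclei (2599) form 1 group apart from other types, and 237 form a second group at the edge of the macrophages.

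The second group was most frequent in the DOCA group. It held 13.0%, 19.4%, 17.4%, and 17.8% of the lymphocyte nuclei in 4 DOCA libraries and 2.35% in the New one. In the 4 control libraries with at least 10 lymphocyte nuclei it held 0%, 3.23%, 6.06%, and 15.8%, the last being 3 of 19 nuclei. Finerenone libraries had 0% to 10.1%, spironolactone libraries 0% to 15.3%, and the amiloride libraries 1.15% and 6.90%. The 6 New libraries had 0% to 6.90% of such nuclei (5 of 809 nuclei in all), against 3.72% to 19.4% (224 of 1978) in the other 11 libraries of DOCA-injected rats. In 3 New libraries it was not found among 366, 76, and 166 lymphocyte nuclei. An approximate limit of 3 counts per library corresponds to shares of 0.820%, 3.95%, and 1.81%, and the exact binomial intervals reach higher. Counted in the largest group alone, lymphocytes still made up more of all nuclei with DOCA than in controls, by 0.871 percentage points of the mean.

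**Figure D5:**
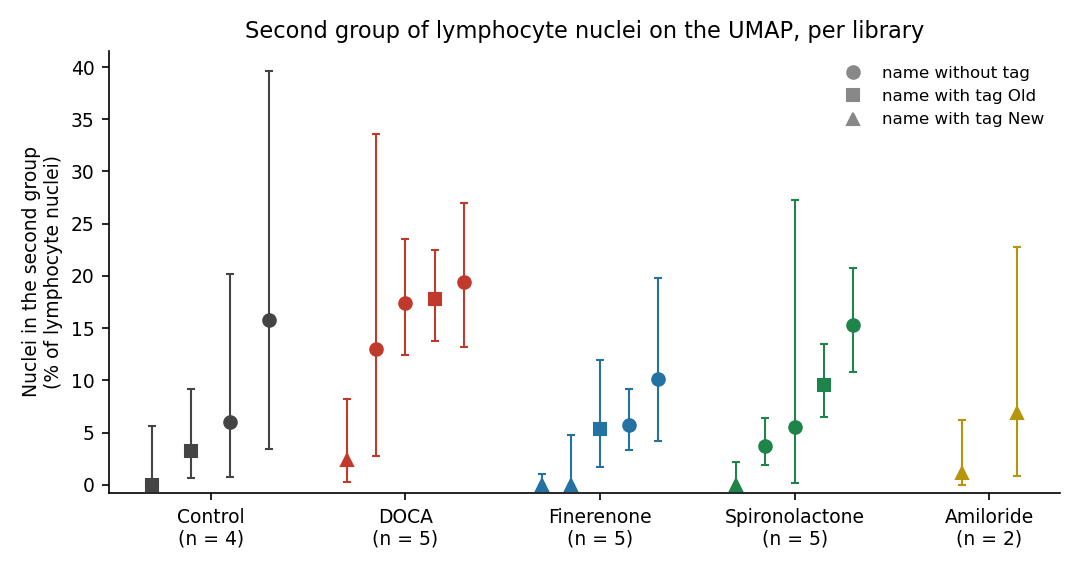
Lymphocyte nuclei of the second group on the UMAP as a percent of all lymphocyte nuclei (vertical axis) in the 21 libraries with at least 10 lymphocyte nuclei, by treatment, with exact 95% binomial intervals and marker shape for the name tag. The 4 DOCA libraries without the tag New sit between 13.0% and 19.4%, while the New libraries sit between 0% and 6.90%.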

How the data were processed

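The authors aligned the reads of rat kidney nuclei to rn6 with Cell Ranger (versions 3.0.2 and 6.0.1 per the labels), with intronic reads included. SoupX was used against ambient RNA and DoubletFinder against doublets. In Seurat (4.0.1 per the labels, another release in the paper's methods) they filtered nuclei by gene number and mitochondrial share, integrated the samples by Harmony, and named clusters by markers. The deposited UMAP coordinates are a score without unit. Each nucleus has a library, a treatment, and a cell type as the authors named them, and 0 columns of per-sample values were left unused.

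Here, nuclei were counted per library with Python 3.11.15 and pandas 2.3.3. Shares have exact (Clopper-Pearson) 95% intervals (scipy 1.17.1), for counting error only. The 5 comparisons used exact two-sided permutation tests of the difference of mean shares over libraries, with intervals from inverting the test and Benjamini-Hochberg adjustment. Nuclei of 1 library were not taken as replicates. Libraries were not matched to samples, and nothing used here ties libraries to separate rats, so p-values measure the spread between libraries. Correlations used 100000 permutations. Groups on the map came from DBSCAN (scikit-learn 1.9.0, radius 0.3, minimum 10 points). The tests were checked on simulated data. The cell type and all comparisons were chosen with earlier results of these data known. No gene is named by its values, as none were analysed. Deposited clusters, RNA counts, genes, and mitochondrial percentages of the nuclei, which were part of the plan, were not analysed here.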

Additional observations from a re-analysis of the deposited data

Results flagged for a closer look

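Among the 5 spironolactone libraries, the lymphocyte share of immune nuclei was lowest in the New library of 33683 nuclei, at 26.1%, whereas the other 4 lay between 30.3% and 31.0%. The gap to the next library was 0.838 of the whole range, above the 95% critical value of Dixon's test (0.710 for 5 samples). Of 12 combinations of treatment and measure examined this was the only one past its critical value. Chance gives about 1 in 20 for each combination, so 1 among 12 is not unusual. Of the other 4 libraries, 1 had only 59 immune nuclei and an exact binomial interval (19.2% to 43.9%) that covers 26.1%. The exact binomial interval of the New library itself (22.8% to 29.7%) overlapped those of all other 4. The New library had 52.4 lymphocyte nuclei per 100 macrophage nuclei, inside the range of the other 4 (51.2 to 53.3). It had 109 per 100 monocyte nuclei, below theirs (251 to 323).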

How the results depend on the processing

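Differences are in percentage points of the mean lymphocyte share. For DOCA against control, the share of all nuclei stayed higher under all 14 alternatives. Its adjusted p rose above 0.05 without the Multiome libraries (1.09), in untagged (1.35) or tagged libraries alone (0.890), in libraries of at least 2000 nuclei (1.20), and, added after seeing the data, with same-number libraries merged in controls alone or also in spironolactone (1.13 in both), all of which leave fewer libraries. For all DOCA-injected rats against control it did so on the logit scale (1.02 logits), without Multiome libraries (1.19), in tagged libraries (0.341), from 2000 nuclei (0.939), and with merged controls (0.996) or both pairs merged (0.973). Finerenone against DOCA was positive in untagged libraries (0.280), and spironolactone against DOCA negative in tagged ones (−0.444) and with pooled nuclei (−0.273).

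For the share of immune nuclei, differences from control were negative in tagged libraries for DOCA (−1.52) and all DOCA-injected rats (−1.51), and the latter passed without Multiome libraries (9.63, exact permutation test, adjusted p = 0.0252). Finerenone against DOCA was negative from 2000 nuclei (−1.47) and against monocytes alone (−4.75), and amiloride against DOCA positive without Multiome libraries (1.28) and against macrophages alone (0.425). The causes were not tested.

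With single libraries left out, DOCA against control ranged from 1.01 to 1.41, all DOCA-injected rats from 0.915 to 1.12, finerenone from −0.890 (without its library of 9325 nuclei) to −0.184 (without that of 48403), spironolactone from 0.0600 (without that of 6404) to 0.780 (without that of 33683), and amiloride from −1.31 to −0.811. Without the control library of 1238, 6629, or 18931 nuclei the adjusted p for all DOCA-injected rats was 0.0760, 0.0718, or 0.0660. The ranges for immune nuclei were 3.31 to 7.97, 4.48 to 9.14 (highest, and past the threshold, without the control library of 14747 nuclei), −1.47 (without the DOCA library of 1774 nuclei) to 2.22, 2.02 to 5.71, and −6.08 to 1.56 (without the amiloride library of 10172 nuclei).

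Correlations with macrophages, monocytes, and iPT nuclei passed throughout. For myofibroblasts ρ was −0.510 as deviations from treatment means and 0.182 in tagged libraries, for fibroblasts −0.764 in untagged and 0.482 in tagged libraries, for endothelial nuclei 0.174 as deviations, and for the number of nuclei 0.400 in untagged libraries and 0.0206 without New ones.

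No paired analysis was possible because library names hold numbers, some recurring between treatments, that are not the replicate numbers of the samples. Alternatives on deposited clusters, RNA counts, genes, and mitochondrial percentages were not run.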
